A study of Mus musculus with 8 samples.

Results

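miR-22 and its passenger strand, which the arrays name miR-22*, are the 2 products of 1 hairpin, and their signals were followed in the livers of diabetic and control mice. Both were taken from the array files by name: every non-control spot named mmu-miR-22 or mmu-miR-22*, which gave 2 of 577 microRNAs (miRNAs), 4 of 1712 probes and 40 of 11540 miRNA spots on each array. The series compared livers of 4 db/db mice with livers of 4 db/+ mice, 1 animal per array as the series text counts them. db/db mice are homozygous for the db mutation of the leptin receptor gene and become obese and diabetic, and the heterozygous db/+ mice served as nondiabetic controls; a label gives the C57BL/KsJ background, and the age of the animals is not given in the sources used here. The db mutation is carried in every tissue, so a difference in liver cannot be separated from the obesity of the whole animal, and the controls carry 1 copy of it. Each 1-colour Agilent mouse miRNA array received 100 ng of Cy3-labelled total RNA from 1 liver.

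A miRNA gene is transcribed as a longer RNA that folds into a hairpin, from which the enzymes Drosha and Dicer cut a short duplex. One strand, the guide, is loaded into an Argonaute protein and lowers the output of messenger RNAs that match its seed, while the other, the passenger or star strand, is mostly degraded. miR-22 is made in many tissues, with high levels in heart and skeletal muscle. In mouse liver it has been reported to repress Tcf7, a transcription factor of the Wnt pathway that acts on genes of glucose production.

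The sequences of the hairpin are shown because both arms are read from the same precursor and the comparison of the arms rests on them. They come from RefSeq (build GRCm38.p6, plus strand). The seed, bases 2 to 8, is in capitals in the mature miRNAs, and the 2 arms are in capitals in the hairpin.
miR-22 (RefSeq name miR-22-3p, chr11:75463772-75463793): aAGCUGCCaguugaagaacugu
miR-22* (RefSeq name miR-22-5p, chr11:75463734-75463755): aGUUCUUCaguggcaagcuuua
Mir22 hairpin (chr11:75463716-75463810): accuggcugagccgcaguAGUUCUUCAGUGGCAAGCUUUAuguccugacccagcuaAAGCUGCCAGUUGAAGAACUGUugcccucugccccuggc
The guide is thus the 3′ arm and the star strand the 5′ arm. The ends of the arms lie 38 bases apart in RefSeq, as do the ends of their probes in the array files. In the RefSeq gene records Mir22 lies within Mir22hg, a long non-coding RNA gene between Wdr81 and Tlcd2. Among 1678 other mouse mature miRNAs in RefSeq, 0 shared the seed of miR-22 and 0 shared that of miR-22*. The closest other sequence to miR-22 was miR-3966, 3 edits away, whereas the closest to miR-22* were 8 edits away. Each arm had 2 probes that differ by 1 base in length. In the coordinates of the array files (mm9, chromosome 11) the miR-22 probes covered 75277277 to 75277295 (19 bases) and 75277278 to 75277295 (18 bases), and the miR-22* probes 75277239 to 75277257 (19 bases) and 75277240 to 75277257 (18 bases).

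The arrays of the 2 strains differed in how evenly bright they were, and this touches every value below. Each array was divided by a factor, its median over the 89 miRNAs that all 8 arrays detected, set against the geometric mean of the arrays. The factor ran from 0.85 to 1.06 in db/db and from 0.21 to 5.63 in db/+. All arrays lay on 1 slide, db/db in row 1 and db/+ in row 2, so the strains cannot be told apart from the rows. Hepatocyte identity was clear in both strains, since miR-122, miR-192 and miR-194 were detected on all 8 arrays. Of the 6 muscle miRNAs listed (miR-1, miR-133a, miR-133b, miR-206, miR-208a and miR-499), 0 were detected on any array. Their summed scaled signal was at most 0.995 on the db/db arrays and at most 2.07 on the db/+ arrays.

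miR-22 was a bright miRNA on every array, and its level did not differ between the strains by more than the test could separate. Its scaled signal was 5492, 5675, 5479 and 5461 on db/db replicates 1 to 4, against 3081, 6068, 3085 and 5042 on db/+ replicates 1 to 4. The 4 db/db livers were almost alike and lay inside the range of the db/+ livers, of which replicate 2 lay above every db/db liver and the other 3 below every db/db liver. On the log2 scale this was 12.43 ± 0.03 in db/db and 12.01 ± 0.50 in db/+ (SD, n = 4 each). The log2 fold change, db/db minus db/+, was 0.42 ± 0.23 (SE), a 1.34-fold difference with a 95% interval of 0.94-fold to 1.91-fold, and did not pass limma's test over 127 miRNAs (adjusted p = 0.265). In bulk liver, fewer cells of a type and less RNA per cell cannot be told apart.

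The strains overlapped for miR-22, while they did not overlap for 22.8% of the 127 tested miRNAs. miR-22 was called neither higher nor lower, where 15.0% of the 127 tested miRNAs passed the same test at an adjusted p under 0.05, 9.45% higher and 5.51% lower. Its unadjusted p ranked 46 of 127. The median log2 fold change of all 127 was 0.15, and miR-22 lay 0.27 above it. Its SD among the db/db livers was the second smallest of the 127 miRNAs, against a median SD of 0.18 in db/db, while its SD among the db/+ livers exceeded the median there, 0.34.

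**Figure D1:**
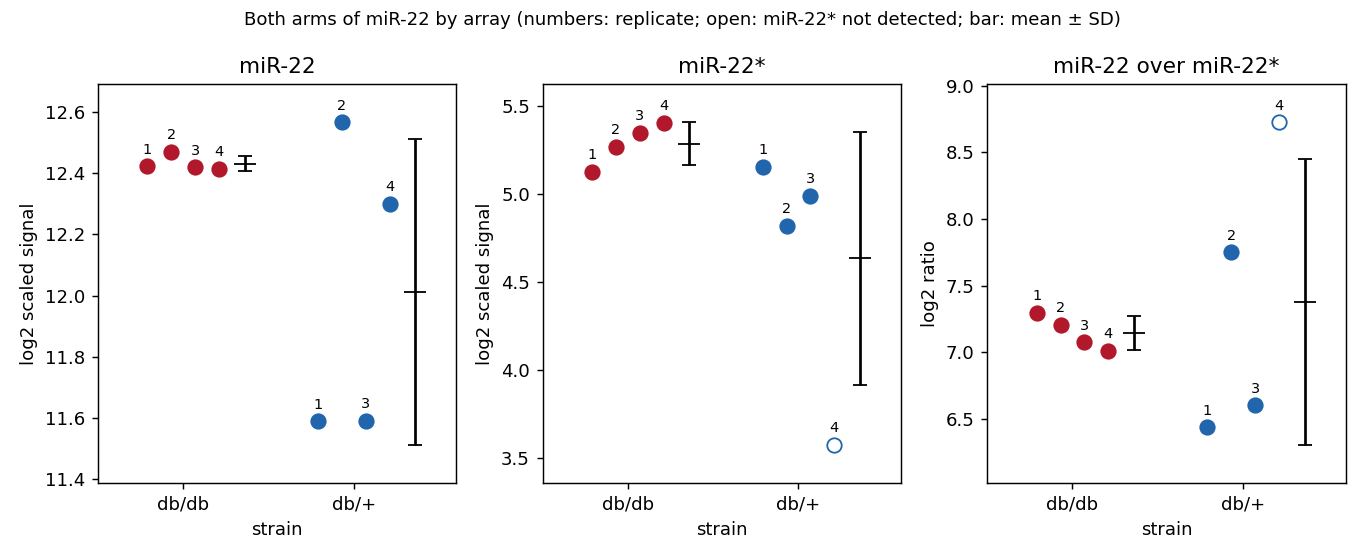
Each point is 1 array (1 liver), numbered by replicate, with db/db left of db/+; the y axes give log2 scaled signal of miR-22, log2 scaled signal of miR-22* and the log2 ratio of the arms, and bars give mean ± SD (n = 4). The db/db points sit close together in all 3 panels, while db/+ replicate 4, open where miR-22* was not detected, has a miR-22* signal below detection and so a ratio that is not a measured level.

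Within db/+, the level of miR-22 was higher on the dim arrays than on the bright ones. Each array is 1 liver, so livers and brightness cannot be told apart there. Before scaling, miR-22 signal was 4653, 6042, 5441 and 5795 on the db/db arrays, against 17347, 3423, 4859 and 1061 on the db/+ arrays. After scaling, the dim db/+ replicates 2 and 4 (factors 0.56 and 0.21) averaged 12.43 on the log2 scale and the bright replicates 1 and 3 (factors 5.63 and 1.58) averaged 11.59, a dim minus bright difference of 0.84. Over the 89 miRNAs detected on all arrays the median of that difference was 0.37, it was positive for 63 of them, and 13 exceeded miR-22. miR-122, the dominant liver miRNA, had 1.17. For miR-22* the same difference was -0.87, the opposite direction, with replicate 4 below detection. The part of array brightness in the difference between strains was not tested; when the arrays with the extreme factors, db/+ replicates 1 and 4, were left out, the log2 fold change of miR-22 was 0.35 (limma adjusted p = 0.398).

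**Figure D2:**
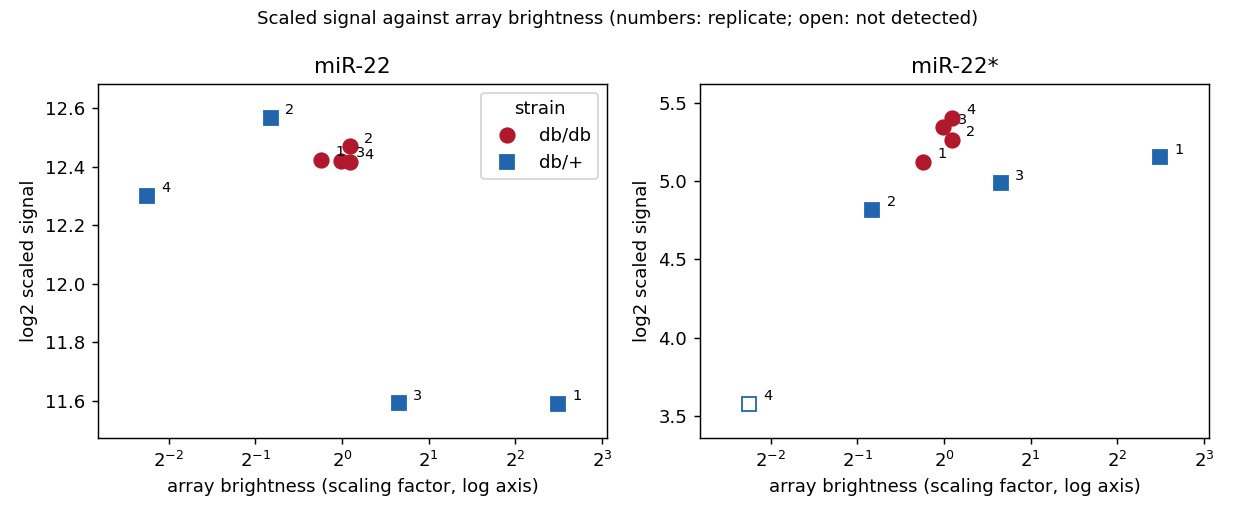
The x axis is the factor by which each array was divided (log axis) and the y axis the log2 scaled signal of miR-22 (left) and miR-22* (right), with db/db as circles and db/+ as squares numbered by replicate. The 4 db/db arrays cluster at factors from 0.85 to 1.06, while the db/+ arrays spread from 0.21 to 5.63, with miR-22 lower and miR-22* higher on the 2 brightest of them.

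The size of the miR-22 difference rested on single db/+ livers. Leaving out db/+ replicate 2, the liver with the highest level, gave 0.61 (limma adjusted p = 0.0907), and leaving out db/+ replicate 1 or 3 gave 0.28 each (adjusted p = 0.453 and 0.465). Leaving out any 1 db/db liver gave 0.41 to 0.43. Other processing moved the value from 0.22 (quantile normalization, adjusted p = 0.320) to 0.67 (raw median intensities, adjusted p = 0.446). In the authors' deposited table of normalized scores, miR-22 was at 2.88, 2.96, 2.90 and 2.87 in db/db and at 2.79, 2.82, 2.77 and 2.68 in db/+. There the strains did not overlap, with db/db higher, as held for 11.5% of the 139 miRNAs of that table. Converted to log2 with an estimated base of 20.0, the authors' deposited table gave a log2 fold change of 0.59 (limma adjusted p = 0.141, where 2.16% of the 139 passed). With raw median intensities and with normexp background correction the strains did not overlap either, where 6.30% and 7.87% of the 127 miRNAs lay wholly higher, and miR-22 passed the test in neither (adjusted p = 0.446 and 0.175).

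The star strand was dim, and its difference did not pass the test either. The scaled signal of miR-22* was 34.9, 38.5, 40.6 and 42.4 on db/db replicates 1 to 4, against 35.5, 28.2, 31.7 and 11.9 on db/+ replicates 1 to 4. It was detected in all 4 db/db livers and in 3 of 4 db/+ livers, the exception being replicate 4. On that array none of the 20 miR-22* spots was well above background and the value 11.9 lay below 25.9, the lowest scaled signal of any miRNA detected there, so it is not a measured level. Of the 20 spots, 12, 16, 20 and 16 were well above background on the db/db arrays, against 20, 2, 20 and 0 on the db/+ arrays. db/db replicate 1 lay below db/+ replicate 1, and the other 3 db/db livers lay above all db/+ livers.

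The log2 level of miR-22* was 5.28 ± 0.12 in db/db and 4.63 ± 0.72 in db/+ (SD, n = 4 each). The log2 fold change was 0.65 ± 0.31 (SE), or 1.57-fold with a 95% interval of 0.97-fold to 2.54-fold (limma adjusted p = 0.196). miR-22* entered this test only through db/db, and these values include db/+ replicate 4, which is not a measured level. Without db/+ replicate 4 the log2 fold change was 0.30 (adjusted p = 0.179), less than the value with all arrays by more than 1.5 times. With the higher floor of 25.9 for low values it was 0.37 (adjusted p = 0.0801). With normexp background correction the direction turned, to -0.37 (adjusted p = 0.351), and with raw median intensities, which keep the background, it was -0.13 (adjusted p = 0.900). The median of all 127 miRNAs also moved, from 0.15 to -0.18 with normexp and -0.09 with raw median intensities. Relative to that median miR-22* was at 0.50 as reported, at -0.19 with normexp and at -0.04 with raw median intensities. The authors' deposited table had scores of 1.27, 1.30, 1.26 and 1.26 for miR-22* in db/db, and of 1.28, 1.28, 1.23 and 0.66 in db/+. There the 2 strains overlapped, and db/+ replicate 4 alone was low. With quantile normalization the strains did not overlap for miR-22*, with db/db higher, as held for 11.0% of the 127 miRNAs, and miR-22* did not pass the test (limma adjusted p = 0.210).

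Star strands were seldom detected in these livers. Of the 114 mouse star strands on the array, 39 were detected on at least 1 array, 8 on at least 7 arrays and 2 on all 8. miR-22* belonged to the 8. Of the 9 star strands tested, 1 passed as higher, miR-31* (limma adjusted p = 0.0317), and 0 as lower. All 9 had a positive log2 fold change, as had 84 of the 127 tested miRNAs. The median of the 9 was 0.26, against 0.15 for all 127. Of the 9, all but the 2 detected on all 8 arrays entered the test only through db/db, with undetected db/+ values included. Their shared direction is therefore no independent evidence of a rise. miR-31* was detected on 4 db/db and 2 db/+ arrays and entered the test through db/db, so its difference rests partly on values that were not measured levels. The rule for testing, detection on all 4 arrays of a strain, was met by db/db in each case in which db/+ missed it, since all 127 tested miRNAs were detected on all db/db arrays and 89 on all db/+ arrays.

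The 2 probes of miR-22 did not keep the same ratio on every array. For miR-22* the 19-base probe was 1.69 to 2.00 times as bright as the 18-base probe wherever miR-22* was detected. For miR-22 the 19-base probe was brighter than the 18-base probe by 7.63, 7.30, 7.14 and 6.81 times on the db/db arrays, against 6.53, 7.86, 4.20 and 7.52 times on the db/+ arrays. The ratio was lowest on db/+ replicate 3, where on the log2 scale it lay 0.79 below the mean of the other 7 arrays. Among 81 miRNAs with 2 probes that were detected on all arrays, the median size of that deviation on db/+ replicate 3 was 0.40, and 15 exceeded miR-22. The median deviations were 0.04 to 0.06 on the db/db arrays, against 0.10, 0.25 and 0.35 on db/+ replicates 1, 2 and 4, so probe pairs varied more on the db/+ arrays in general.

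Fitted over 271 single probes of the tested miRNAs, of which 9.23% passed at an adjusted p under 0.05, the 19-base miR-22 probe had a log2 fold change of 0.45 ± 0.25 and the 18-base probe 0.26 ± 0.16 (SE; limma adjusted p = 0.312 and 0.338). For miR-22* the 19-base probe had scaled signals of 45.3, 48.6, 54.2 and 56.5 in db/db, against 44.6, 35.6, 40.5 and 30.0 in db/+. All 4 db/db livers lay above all 4 db/+ livers, as held for 11.8% of the 271 probes (16.6% did not overlap in either direction). However, db/+ replicate 4 had 0 of 10 spots of this probe well above background, and db/+ replicate 2 had 1 of 10. The log2 fold change of this probe was 0.45 ± 0.14 (limma adjusted p = 0.107). The 18-base miR-22* probe had 0.80 ± 0.54 (adjusted p = 0.397), with db/+ replicate 4 set to the floor.

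**Figure D3:**
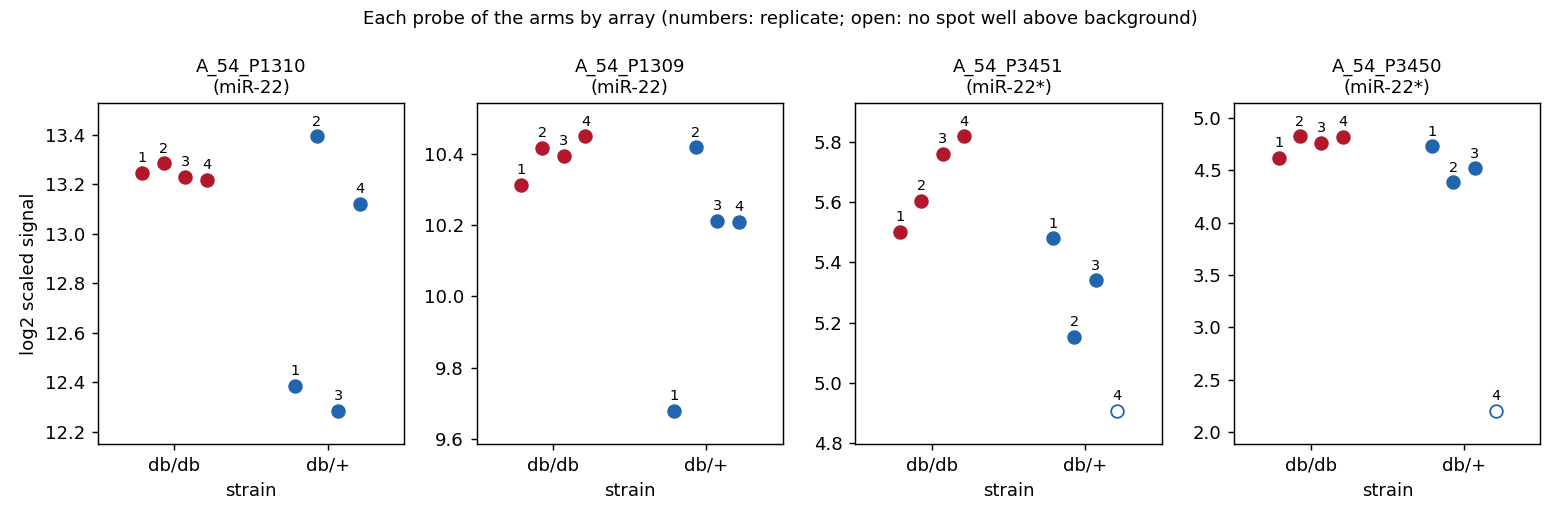
Each panel is 1 probe, the 19-base and 18-base probes of miR-22 followed by those of miR-22*; points are arrays numbered by replicate, db/db left of db/+, on the log2 scaled signal axis of each panel, and open points had no spot well above background. The third panel, the 19-base miR-22* probe, is the 1 panel in which every db/db point (45.3 to 56.5 before log2) lies above every db/+ point (30.0 to 44.6).

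The ratio of the arms asks whether guide and star strand moved apart between the strains, and here the factor that divided each array cancels. Array brightness itself need not cancel, since within db/+ the ratio was lower on the bright replicates 1 and 3 than on the dim replicates 2 and 4. The part of brightness in the ratio was not tested. The ratio's size also reflects the probes and is not a ratio of molecules. miR-22 signal was 157, 148, 135 and 129 times that of miR-22* on db/db replicates 1 to 4, against 86.7, 215 and 97.3 times on db/+ replicates 1 to 3. On db/+ replicate 4, where miR-22* was not detected, the ratio has only a bound, at least 194 times, taken against the lowest detected signal of that array. The db/db ratios were close to one another, above those of the bright db/+ replicates 1 and 3 and below those of the dim replicates 2 and 4. With the undetected signal of db/+ replicate 4 taken as it stood, the log2 ratio was 7.15 ± 0.13 in db/db and 7.38 ± 1.07 in db/+ (SD, n = 4 each), a difference of -0.23 (two-sided exact permutation p = 0.743, the smallest possible being 0.0286).

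The direction of that difference turned when 1 liver was left out. Over the 7 arrays on which miR-22* was detected, without db/+ replicate 4, the log2 ratio was 7.15 ± 0.13 in db/db (n = 4) and 6.93 ± 0.71 in db/+ (n = 3), a difference of 0.22 (two-sided exact permutation p = 0.543). With normexp background correction it was 1.01, with all 4 db/db ratios above all db/+ ratios (exact permutation p = 0.0286), where the strains separated for 36.4% of the 11 arm pairs, and with raw median intensities 0.80 (exact permutation p = 0.0571).

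Both arms of 11 hairpins were in the tested set, and their arm ratios were fitted together with limma, where 27.3% passed at an adjusted p under 0.05. The miR-22 pair had -0.23 ± 0.42 (SE), a 95% interval of -1.14 to 0.68 on the log2 scale (adjusted p = 0.618), and ranked 10 of 11 by p. The median of the 11 differences was -0.30, and 3 were positive. The ratio passed for miR-125a-5p over miR-125a-3p at -1.32 ± 0.33 (adjusted p = 0.0133), for miR-338-5p over miR-338-3p at 0.89 ± 0.24 (adjusted p = 0.0133) and for miR-29c, a miRNA known to repress collagen genes, over miR-29c* at -0.70 ± 0.22 (adjusted p = 0.0302). In each of these 3 pairs 1 arm was detected on 7 of 8 arrays, as in the miR-22 pair, and the missing array was a db/+ array. Only 2 of the 11 pairs had both arms detected on all 8. The 3 passing ratios and the median of -0.30 therefore include db/+ values that were not measured levels. Without db/db replicate 4, 0 of the 11 passed in limma (3 at an unadjusted p under 0.05), and without db/db replicate 1, 1 passed.

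**Figure D4:**
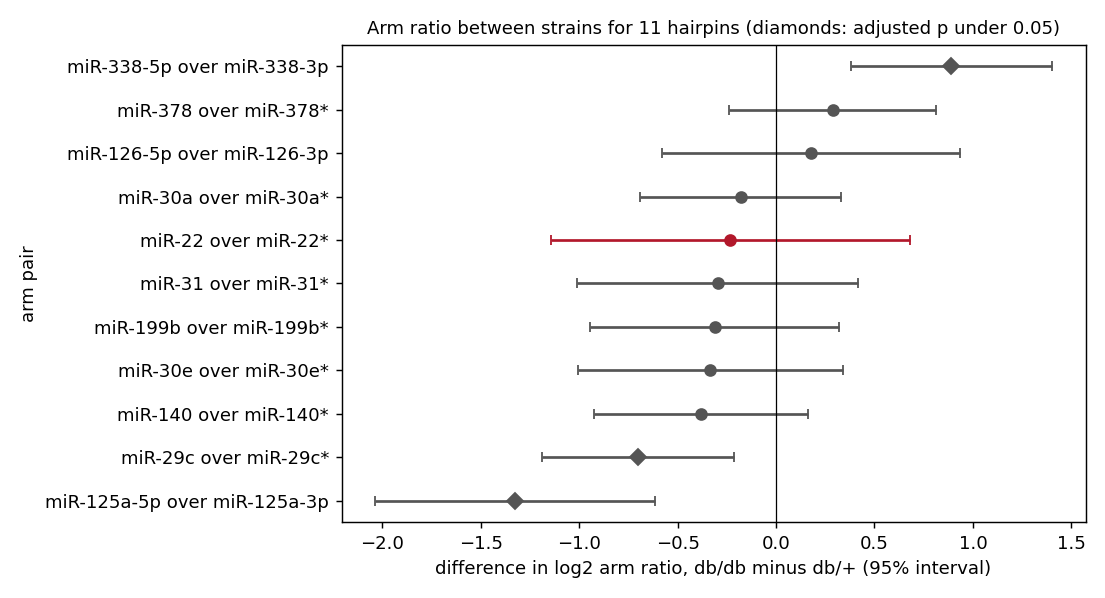
Each row is 1 hairpin with both arms tested, with the difference in log2 arm ratio, db/db minus db/+, on the x axis, 95% intervals from limma as bars, and diamonds for an adjusted p under 0.05. The miR-22 pair (red) lies at -0.23, near the median of -0.30, with an interval that spans 0.

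The miRNAs whose profile over the 8 livers was most like that of miR-22 were chosen by the smallest root mean square difference of log2 values, each centred on its own mean, among the other 88 miRNAs detected on all arrays. They were miR-15b (0.12), a member of the miR-15 and miR-16 family, miR-92a (0.14), of the miR-17-92 cluster, let-7b (0.14), let-7c (0.17) and miR-151-5p (0.18), against a median of 0.37 over the 88. The log2 fold changes of these 5 ran from 0.23 for miR-92a to 0.40 for let-7c, and 0 of the 5 passed (limma adjusted p = 0.552 and 0.182 for these 2). All profiles come from the same 8 arrays and share their brightness.

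miR-22 belongs with miRNAs known to act on glucose and lipid metabolism in liver, of which 19 others were listed with earlier results of these data known. Of these, 15 were tested, 4 rose and 2 fell, where 9.45% of all 127 rose and 5.51% fell. Their median log2 fold change was 0.10 against 0.15 for all 127, and since the list was drawn up with results known, its counts are no independent evidence. miR-34a, which represses the deacetylase Sirt1, rose by 2.54 on the log2 scale (limma adjusted p = 1.7e-04), and miR-378, from an intron of Ppargc1b, by 1.09 (adjusted p = 0.0063). miR-107 and miR-103, from introns of pantothenate kinase genes, rose by 0.74 and 0.58 (adjusted p = 0.0164 and 0.0220), and their probes may share signal. miR-21, high in growing and fibrotic tissue, fell by 0.78 (adjusted p = 0.0085), and miR-223, a myeloid miRNA, fell by 0.74 (adjusted p = 0.0434). Of 11 miRNAs listed as abundant in hepatocytes, all were tested, 0 rose and miR-21 fell, with a median of 0.03.

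Among the other cell types, 2 of the 3 tested leukocyte markers fell, miR-142-3p by 1.10 (limma adjusted p = 0.0164) and miR-223, where 5.51% of all 127 miRNAs fell. The summed scaled signal of all 6 leukocyte markers was 237 to 320 on the db/db arrays and 424 to 546 on the db/+ arrays. The endothelial, erythroid and stellate or smooth muscle markers had 2, 1 and 3 tested members, of which 0 passed. For the endothelial markers the summed signal was 1676 to 2085 in db/db and 1488 to 2172 in db/+, for the erythroid ones 1236 to 2213 in db/db and 813 to 1971 in db/+, and for the stellate or smooth muscle ones 89.8 to 117 in db/db and 69.1 to 100.5 in db/+. The 3 hepatocyte markers summed to 51075 to 55164 in db/db and to 29923 to 72318 in db/+, with 0 calls. The part of cell makeup in the values of miR-22 was not tested.

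**Figure D5:**
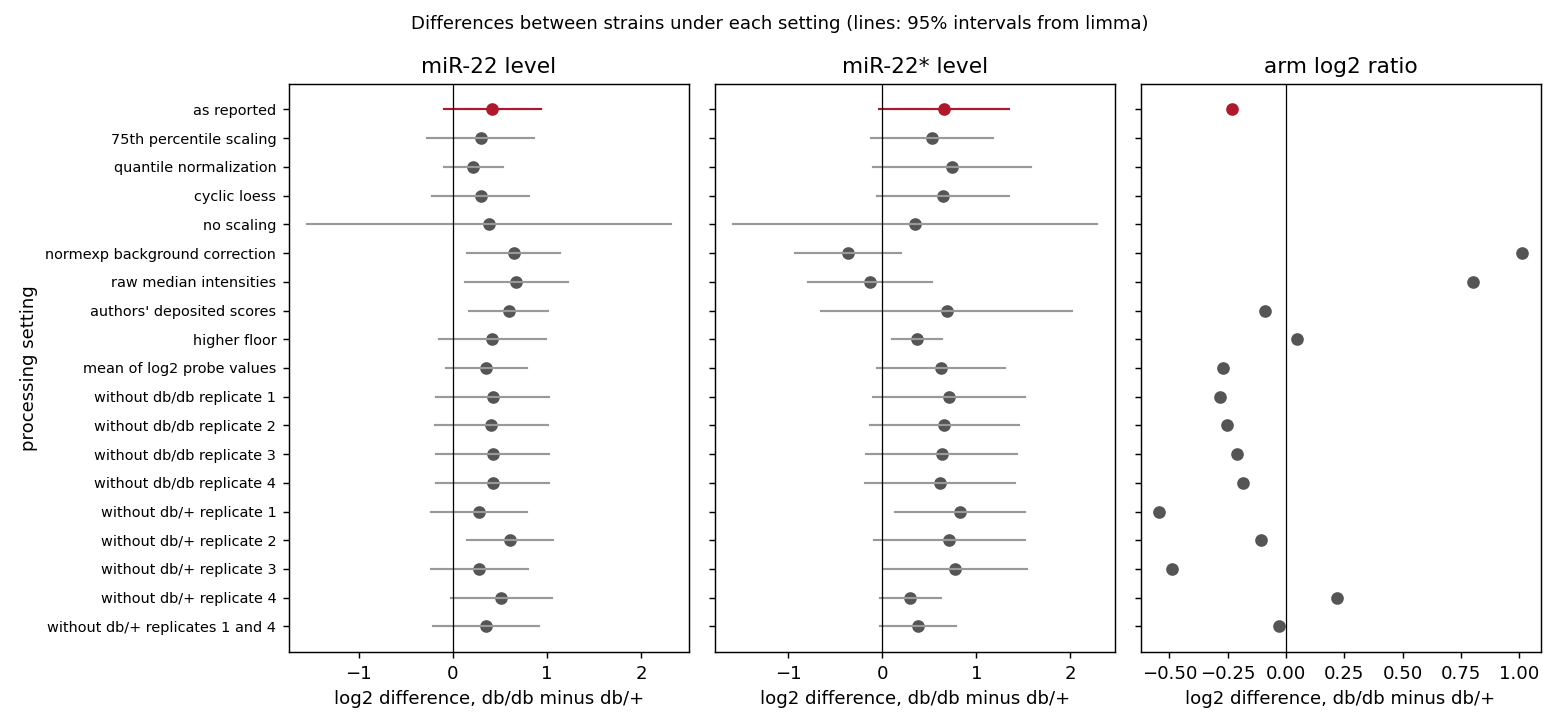
Points give the log2 difference, db/db minus db/+, of miR-22, miR-22* and the arm ratio under each processing setting named on the y axis, with limma's 95% intervals as lines where limma gave the value. miR-22 stays between 0.22 and 0.67, whereas miR-22* turns to -0.37 and -0.13 and the arm ratio to 1.01 and 0.80 with normexp background correction and raw median intensities.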

How the data were processed

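Per the file headers, the software that quantified the images was Feature Extraction 9.5.3.1 from Agilent. Its processed spot intensity is background-subtracted and, per the file headers, unscaled; flags of detection, background, saturation and outliers are other values of 0 or 1, per the file headers. The authors also deposited the raw median intensity of each spot and, for 139 miRNAs, a log score, median-normalized per the series text, whose base was estimated at 20.0 from the scanner files.

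Here control and outlier-flagged spots (3.4% to 4.8% of 11540) were left out, spots were averaged per probe and probes per miRNA, arrays were divided by their median over the miRNAs detected on all 8, values were floored at 4.59 and log2 was taken. limma 3.58.1 (R 4.3.3) was fitted to the 127 miRNAs detected on all 4 arrays of a strain, two-sided, with Benjamini-Hochberg adjustment at 0.05. The arm ratio was compared with an exact permutation test over 70 label assignments. Replicates are 4 animals per strain in the series text, and their number limits the precision.

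Named were the 2 members, the 5 miRNAs nearest in profile, called members of the metabolic list and the 3 arm pairs with the smallest p; leukocyte markers, miR-122 and miR-31* were named after their values were seen. The members, lists and tests were chosen with earlier results of these data known.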

Additional observations from a re-analysis of the deposited data

Results flagged for a closer look

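Among 16 sets of 4 arrays checked for a single array far from the others (each arm, each probe, the arm ratio and the miR-22 probe ratio in each strain), 2 were marked, where chance marks about 1 in 20. miR-22 on db/db replicate 2 was at 12.47 on the log2 scale, above the other db/db livers by a share of 0.85 of the strain's range, but that range was itself narrow (12.41 to 12.47). The 18-base miR-22* probe on db/+ replicate 4 was at 2.20, the floor, because its signal there was below 0 before flooring.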

How the results depend on the processing

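miR-22 kept its positive direction in 26 of 26 alternatives and passed the test in 0 (0.22 to 0.67; adjusted p = 0.0907 to 0.993 over limma and SAM). miR-22* kept its direction in 23 of 25 and passed in 0; it was -0.37 with normexp and -0.13 with raw median intensities. The arm ratio kept its direction in 15 of 20: it was 1.01 with normexp (exact permutation p = 0.0286), 0.80 with raw median intensities, 0.049 with the higher floor, and 0.22 without db/+ replicate 4, also the value over the arrays with miR-22* detected. These counts include settings that could not move a value, so they overstate how often each direction was tested. The other floors, the other filters, the replicate block and SAM left miR-22 at 0.42. The lower floor, no filter, the replicate block and SAM left miR-22* at 0.65. The lower floor, the replicate block, limma over all pairs and unscaled values without a floor left the arm ratio at -0.23. Leaving out 1 array gave 0.28 to 0.61 for miR-22, 0.30 to 0.82 for miR-22*, -0.55 to 0.22 for the arm ratio, 10 to 21 calls over the table (10 without db/db replicate 2 and 12 without db/db replicate 3) and 0 to 3 calls over the arm pairs. The 19 calls over the table (33 at an unadjusted p under 0.05) became 5 with cyclic loess, 0 without scaling in limma (1 at an unadjusted p under 0.05), 2 with normexp, 1 with raw median intensities, 3 with the authors' deposited scores, 12 with the higher floor and 4 with no filter; SAM called 17. The 12 higher and 7 lower calls became 6 and 8 under 75th percentile scaling, where the median log2 fold change of all miRNAs was 0.02 in place of 0.15; miR-22 lay 0.27 above the median under both, 0.16 above it with quantile normalization and 0.82 with normexp. Why these values moved was not tested. Before scaling, normexp adds an offset of 50 to every spot, and raw median intensities keep the background of each array.

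Label numbers 3 and 4 are shared between the strains. Deviations of same-numbered arrays correlated at 0.04 and 0.31 over the 127 miRNAs, so the numbers were not taken as pairs. The replicate block took numbers 3 and 4 as 2 blocks and the 4 arrays with no shared label number as another. With it, adjusted p was 0.266 for miR-22 and 0.169 for miR-22*, the arm ratio stayed at -0.23 (limma adjusted p = 0.545), and 18 miRNAs and 3 arm pairs passed. Scaling by the median over all miRNAs was not run because that median was not above 0 on every array, and 2 arm pairs detected on all 8 arrays were too few to fit. Single probes and the total gene signal of Feature Extraction were added after the data were seen.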
